A study of Mus musculus with 34 samples.

Results

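The genes of mitochondrial respiratory complex I were followed in ribosome footprints and RNA from mouse hippocampus, from a hippocampal primary culture and from embryonic stem cells. Members were all genes whose symbol begins with Nduf. The hippocampus tables listed 43 of them among 11531 genes, namely 35 subunits, 7 Ndufaf assembly factors and Ndufa4, a gene with a complex I name whose protein is now counted as part of complex IV. The culture table listed 43 of 10379 genes and that of stem cells held 44 of 11029, and 42 members stood in all 4 tables. Ndufs5 was absent from the stem cell table, and Ndufs6 and Ndufa4l2 appeared there alone. Of the 35 subunits in hippocampus, 7 belong to the catalytic core, 8 to the accessory shell of the matrix arm and 19 to that of the membrane arm, and 1, Ndufab1, is the mitochondrial acyl carrier protein.

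Ribosome-protected fragments (RPF, footprints) and RNA were sequenced in parallel. The stem cells were mouse line A3-1, kept with LIF and treated for 48 hours with a siRNA against luciferase, which mice lack, and gave 1 library of each kind. The culture was a hippocampal primary culture from C57BL/6N mice, also with 1 library of each kind. The tissue was hippocampus of C57BL/6N mice, either without stimulus (control) or collected at 4 times after contextual fear conditioning, 5, 10 and 30 min and 4 h, with 3 libraries of each kind per group. In conditioning, handled mice explored a chamber for 148 s and then received a foot shock of 2 s, per the labels. Lysis was in cycloheximide, which holds ribosomes on the mRNA, and ribosomes were recovered on Sephacryl columns. The labels give no statement that replicates were separate mice, so p-values measure only how these samples vary, and that variation may be technical.

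The values are reads per gene divided by 1 number per library, called signal here. Reads on listed genes came to 65147288 RPF and 16686790 RNA reads in stem cells, 18771379 and 7282564 in culture, and between 14240563 and 30480009 RPF and between 16814796 and 25515210 RNA reads per hippocampus library. Complex I subunits took 0.517% of the RPF and 0.530% of the RNA reads in stem cells and 0.495% and 0.412% in culture. In control hippocampus they took 0.521%, 0.653% and 0.621% of RPF reads and 0.332%, 0.371% and 0.355% of RNA reads. All 9 stem cell markers were listed in stem cells (summed RPF signal 563) and none in tissue or culture. The 7 neuron markers summed to an RPF signal of 18.7 in stem cells, where 3 were listed, to 302 in culture and to between 471 and 525 in control hippocampus. Culture listed 6 of 7 hippocampus markers, with an RPF sum of 42.4 against at least 82.1 in control hippocampus. Wfs1 gave 29.4 of this culture sum (control mean 23.0), and each other listed hippocampus marker was below its control mean. In culture 6 of 6 astrocyte markers were listed, with an RPF sum of 230 against at least 321 in control. Culture had almost none of the oligodendrocyte and microglia markers (RPF sums 0.839 and 0.278, against at least 277 and 37.9 in control hippocampus). No endothelial marker was listed there.

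Complex I takes electrons from NADH through a flavin and a chain of iron-sulphur clusters to ubiquinone and pumps protons across the inner mitochondrial membrane. Its L shape has a matrix arm, which carries the electron chain, and a membrane arm, which carries the proton path. The hydrophobic core of the membrane arm is made from mitochondrial DNA, whereas every Nduf gene is nuclear and its product is imported. The Ndufaf proteins help the modules to fold, mature and join, and are not part of the finished enzyme. Neurons depend on oxidative phosphorylation, and human defects in many of these genes cause encephalopathy of the Leigh type.

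The promoters were searched for the letters of 3 factors, NRF1, YY1 and the ETS protein GABPA, which are known to act at nuclear genes of mitochondrial proteins. RefSeq windows on GRCm38.p6, from 250 bases before to 50 after the gene start, were at hand for 39 of 45 members and 27025 genes. The NRF1 letters GCGCATGCG, read on both strands (they are nearly their own reverse complement, so matches on the strands overlap), stood in 4 of 39 member windows (10.3%) and in 1.95% of all windows. The YY1 letters AAGATGGCG stood in 5 member windows (12.8%), all of subunits, and in 1.64% of all windows. The ETS letters CCGGAAGT, the class bound by GABPA, stood in 1 member window (2.56%), that of Ndufs3, and in 4.31% of all windows. The stretches around a match are given for Ndufa11 and Ndufaf4, the highest and lowest ratios in hippocampus, for Ndufs7, a core subunit of high ratio, for Ndufc1, the largest ratio difference in culture, and for Ndufa9, whose signal differed between sources. Capitals mark the matched letters, written 5′ to 3′ on the strand of the gene.
Ndufa11, NRF1 letters, chr17:56717692-56717720, plus strand: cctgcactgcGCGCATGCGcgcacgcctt
Ndufaf4, NRF1 letters, chr4:24897960-24897988, plus strand: ccagatgtctGCGCATGCGcctgtgcgga
Ndufc1, YY1 letters, chr3:51408915-51408943, minus strand: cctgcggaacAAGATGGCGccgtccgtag
Ndufs7, YY1 letters, chr10:80249463-80249491, plus strand: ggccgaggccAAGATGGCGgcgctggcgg
Ndufa9, YY1 letters, chr6:126849097-126849125, minus strand: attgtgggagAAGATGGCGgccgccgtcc
The NRF1 letters lay upstream of the annotated start in Ndufa11 and Ndufaf4; the match began at positions −60 and −113 relative to the start, while the YY1 letters lay inside the transcript, 22, 24 and 29 bases after the start of Ndufc1, Ndufs7 and Ndufa9. The YY1 letters contain ATG, and all 5 matches stood on the strand of the gene, 22 to 35 bases after the start. Whether translation begins at this ATG was not tested, and the windows of all genes were not matched for it. A match is a description of the letters and not a binding site.

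In control hippocampus, subunit mRNAs carried more footprints per RNA read than most genes, and the assembly factors lay near the median gene. The measure is log2 of RPF over RNA signal in the libraries of the same replicate number, minus the median over all genes of that pair, so that 0 is the median gene and 1 is 2-fold above it. The subunit median was 0.73, 0.87 and 0.93 in the 3 pairs and 0.90 over their mean. All genes had quartiles of −0.65 and 0.61, and the subunit median stood at percentile 84.0 of all genes. In all, 32 of 35 subunits lay above the median gene. There were 11 subunits at least 2-fold above it, against 13.4% of all genes, and the count was 9, 15 and 14 in the pairs taken singly. The 7 Ndufaf factors had a median of −0.11, 0.03 and −0.01 in the 3 pairs and −0.14 over their mean, with 3 above the median gene and 1, Ndufaf2, at least 2-fold above. Footprints come from the translated part of an mRNA, while RNA reads can also come from untranslated parts, and the share of reads from untranslated parts was not tested.

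**Figure D1:**
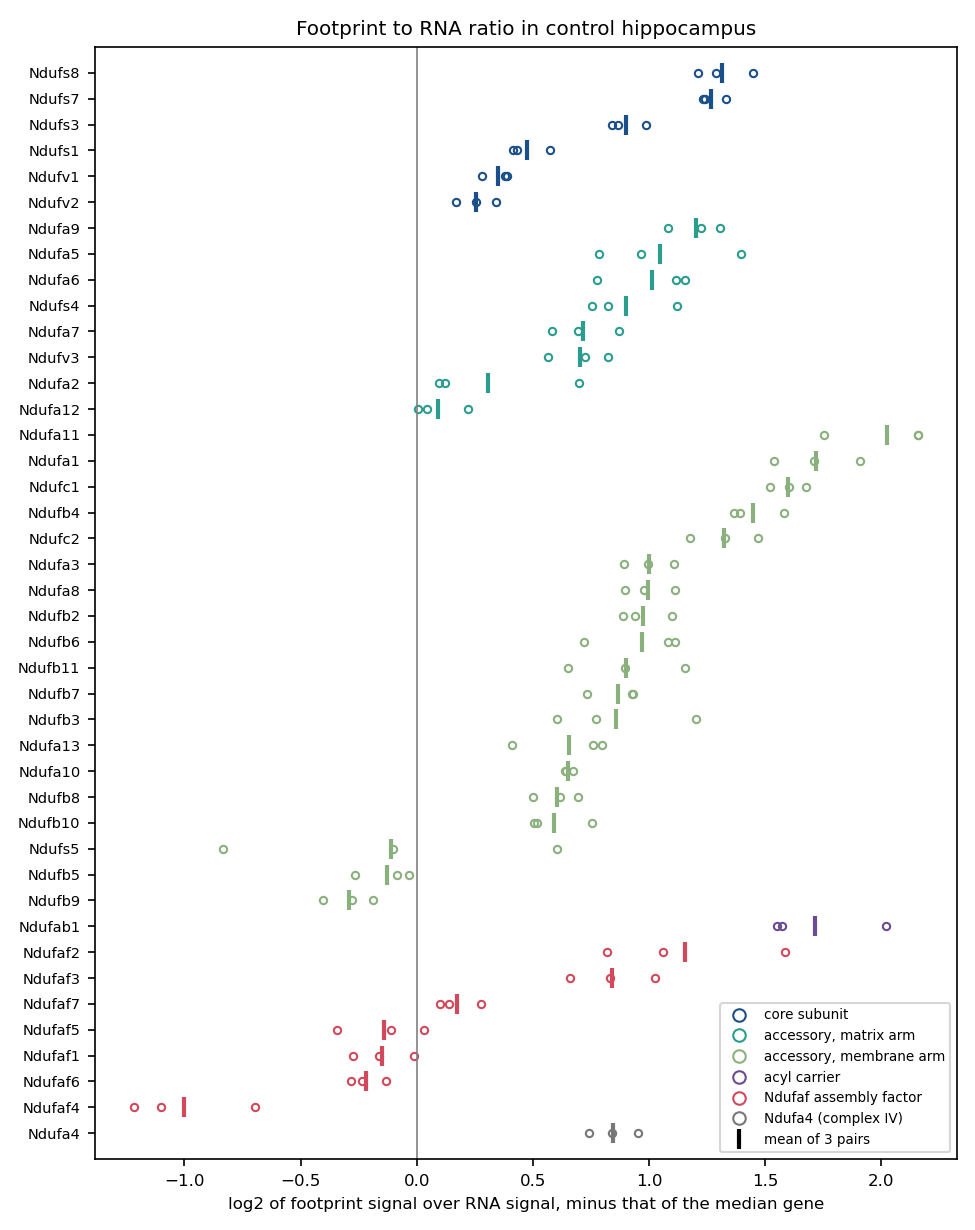
Footprint to RNA ratio (log2, relative to the median gene) of the Nduf genes reported, in control hippocampus, 1 point per pair of libraries with a bar at their mean, grouped by role. Subunits lie mostly right of 0, Ndufa11 is the highest and Ndufaf4 the lowest.

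All 7 core subunits lay above the median gene, with mean ratios between 0.26 and 1.32. Ndufs8, which holds iron-sulphur clusters next to the ubiquinone site, had ratios of 1.29, 1.45 and 1.21. Ndufs7, which carries the last cluster before ubiquinone, had 9.02, 11.3 and 10.3 RPF against 3.84, 4.40 and 4.22 RNA signal, that is ratios of 1.23, 1.33 and 1.24. These 2 are the core subunits past 2-fold, and their 3 pairs kept close together. Ndufs3, a structural core subunit of the matrix arm, had ratios of 0.84, 0.87 and 0.99. Ndufs1, the largest cluster-bearing subunit, had 0.57, 0.41 and 0.43. The subunits of the NADH end were the lowest of the core: Ndufv1, which binds the flavin, had 0.38, 0.39 and 0.28, and its partner Ndufv2 had 0.17, 0.26 and 0.34.

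The accessory subunits ranged more widely. Those of the matrix arm had a median of 0.81 (range 0.090 to 1.20, 8 of 8 above the median gene), and those of the membrane arm 0.90 (range −0.29 to 2.02, 16 of 19 above). The highest ratio of all members was that of Ndufa11, a membrane-arm subunit, with 8.87, 11.4 and 9.11 RPF against 1.99, 2.49 and 2.62 RNA signal and ratios of 2.16, 2.16 and 1.75. Ndufa1, a small membrane-arm subunit needed for assembly, followed with 1.54, 1.71 and 1.91, and the acyl carrier Ndufab1, which also serves mitochondrial fatty acid synthesis, with 1.57, 2.02 and 1.55. The lowest subunit was Ndufb9, a membrane-arm protein of the LYR family, with 12.5, 13.8 and 15.3 RPF against 16.5, 16.3 and 16.9 RNA signal and ratios of −0.40, −0.28 and −0.19. Ndufs5 gave no steady value (−0.10, −0.83 and 0.60), with as few as 66 reads in a library. Ndufa4 had 0.74, 0.84 and 0.95. RefSeq lists further genes or pseudogenes named after Ndufa11, Ndufa12, Ndufab1, Ndufb4, Ndufs5 and Ndufs6. How alike the sequences are was not measured, so reads of these genes are uncertain where the deposited counting could split them.

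Among assembly factors, Ndufaf4, which with Ndufaf3 binds the early matrix-arm intermediate, had the lowest ratio of all members: 1.87, 1.89 and 2.31 RPF against 4.02, 4.28 and 3.63 RNA signal, with ratios of −1.10, −1.22 and −0.69. Its partner Ndufaf3 had a mean ratio of 0.84, so the 2 partners stood on opposite sides of the median gene in the 3 pairs. Ndufaf6 had ratios of −0.28, −0.24 and −0.13, Ndufaf1, a member of the membrane-arm assembly complex, a mean of −0.15, and Ndufaf5, which hydroxylates Ndufs7, a mean of −0.14. Ndufaf7, a methyltransferase of the matrix arm's assembly, had a mean of 0.17. Ndufaf2, the paralog of Ndufa12 that holds its place late in assembly, had 0.82, 1.06 and 1.59.

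The ends of the order were kept in the hippocampus samples, conditioned ones included, while ranks between them moved. Over the 15 pairs of RPF and RNA libraries, Ndufa11 ranked first of 43 in 14 and Ndufa1 in 1, and Ndufaf4 ranked last in 15 of 15 (range −1.41 to −0.69). The 15 include the control pairs from which these ends were named. Libraries of the same replicate number also vary together, so the pairs are not independent. Ndufaf2 ranked between 3 and 24, Ndufa7 between 13 and 36 and Ndufb11 between 10 and 28. The subunit median exceeded the Ndufaf median in 15 of 15 pairs, by between 0.77 and 1.05. In every pair 31 of 35 subunits lay above the median gene, and 1, Ndufb9, lay below it. Across the 43 genes, Pearson's r between the control pairs was 0.880 to 0.952 and Spearman's rho 0.894 to 0.921. These describe genes, which are not replicates, and share the libraries' base composition.

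In stem cells, subunit RNA was mostly higher than in control hippocampus while footprints were not, so that the ratio was lower in every subunit. With 1 library of each kind the difference has no replicate check and no test, and the tables were normalised separately. Differences are ESC minus the mean of the 3 controls on the log2 scale, each library taken relative to the median of the 8760 genes that all tables list, while signals are given as deposited. In such bulk samples, fewer cells of a type and less RNA per cell cannot be told apart. The median difference over 34 subunits was 0.55 in RNA, −0.04 in RPF and −0.72 in ratio, beside medians over all genes of 0.09, 0.09 and −0.08. Against each control alone the RPF median was 0.09, −0.23 and −0.12, so its sign depended on the control library, while the RNA median was 0.63, 0.52 and 0.45 and that of the ratio −0.60, −0.72 and −0.77. In RNA 6 subunits were lower (all genes 48.5%), 10 were at least 2-fold higher (all genes 32.6%) and 1 at least 2-fold lower (all genes 31.8%), so the 2-fold counts were near or under the share among all genes. In RPF 19 were lower (all genes 48.5%), 3 were at least 2-fold higher (all genes 33.4%) and 3 at least 2-fold lower (all genes 31.8%). The ratio was lower in 34 of 34 subunits, against 53.7% of all genes, and in 34, 33 and 33 against each control pair alone. This difference subtracts the control ratio, in which the subunits stood high, so the 2 are not independent. All genes are thus no like baseline, and genes of a like control ratio were not compared. In stem cells themselves the subunit median ratio was 0.19, with 23 of 35 above the median gene and 2 at least 2-fold above it (all genes 14.2%). Of the Ndufaf factors 5 of 7 had a lower ratio, with a median difference of −0.22.

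**Figure D2:**
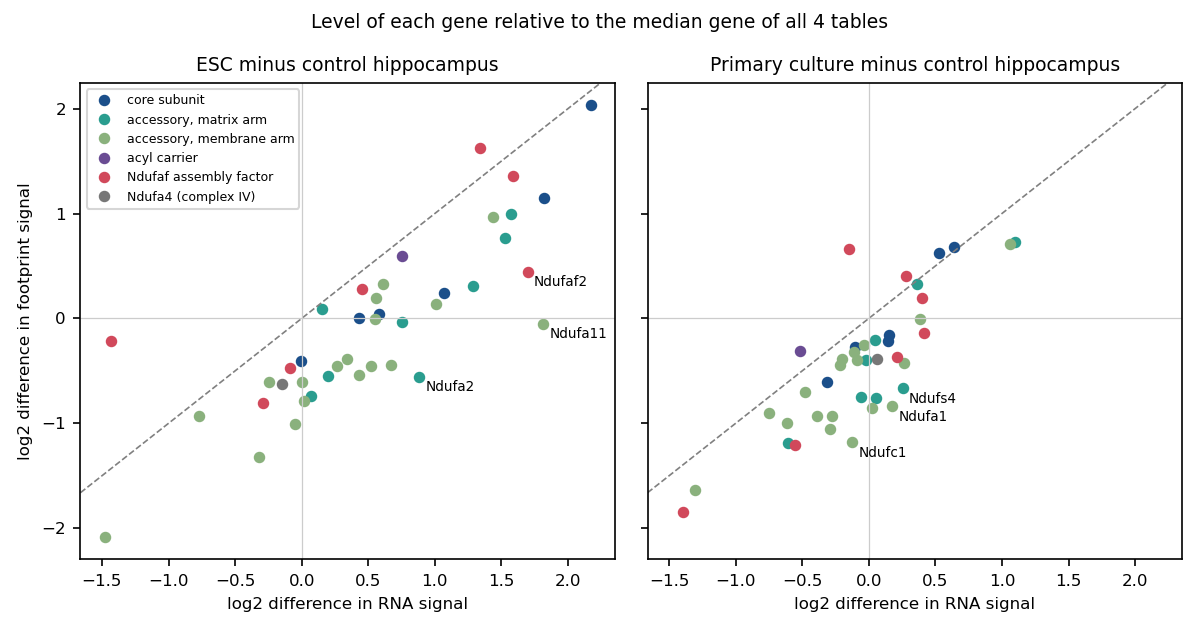
RNA against RPF difference (log2, relative to the median gene) from control hippocampus, for the members reported, in ESC and in culture. On the dashed line the ratio is the same as in control. In ESC the subunits lie below that line, Ndufa11 is the farthest below it, and the red point above it at the far left is Ndufaf4.

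Some core subunits had more RNA and more footprints in stem cells. Ndufs1 had 41.4 RPF and 27.8 RNA signal in ESC, against 8.91, 6.94 and 6.61 RPF and 5.99, 5.09 and 4.77 RNA in control hippocampus, which makes differences of 2.04 and 2.17 relative to the median gene. Ndufv1 differed by 1.15 in RPF, which lay between those quartiles, and by 1.82 in RNA. In contrast, Ndufs7 differed by −0.41 in RPF and −0.01 in RNA, so the core subunits differed among themselves. Ndufb2, a membrane-arm subunit, was lower in both kinds, by −2.09 in RPF and −1.48 in RNA, with 4.36 RPF signal in ESC against 13.1, 14.3 and 13.5 in control.

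The member with the highest ratio in hippocampus also had the largest difference in ratio. That difference subtracts the control ratio itself, so the 2 are not independent. The same holds for Ndufaf4, the lowest in hippocampus. Ndufa11, whose NRF1 letters are shown above, had 12.7 RPF and 9.73 RNA signal in ESC, a ratio of 0.19 (95% interval 0.12 to 0.26, counting error only), against 2.02 ± 0.23 in control (SD, n = 3). Its RNA difference was 1.81 and its RPF difference −0.05, so the lower ratio came with higher RNA at similar footprints. Ndufa2, a thioredoxin-fold subunit of the matrix arm, had a ratio difference of −1.43, Ndufaf2 of −1.25 and Ndufb7 of −1.12. Ndufaf4 went the other way: 2.35 RPF and 1.73 RNA signal in ESC, a ratio of 0.25 (95% interval 0.08 to 0.41), against −1.003 ± 0.274 in control. Its RNA was lower by −1.44 at an RPF difference of −0.22. Ndufaf1, with differences of 1.62 in RPF and 1.34 in RNA, was the other member of higher ratio (0.29). Ndufa4l2, the hypoxia-inducible relative of Ndufa4, had a signal of 0.491 RPF and 0.107 RNA in ESC (323 and 23 reads), and Ndufs6, an accessory subunit of the matrix arm, 0.277 and 0.167.

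In the primary culture, most subunits had lower footprints than in control hippocampus, at a median RNA level near that of the tissue. The median difference over 34 subunits was −0.41 in RPF, −0.05 in RNA and −0.35 in ratio, beside medians over all genes of 0.01, 0.02 and −0.04. Against each control alone the RPF median was −0.23, −0.56 and −0.56, the RNA median 0.01, −0.08 and −0.06 and the ratio median −0.24, −0.38 and −0.39. In RPF 28 subunits were lower (all genes 49.4%), none was at least 2-fold higher (all genes 11.3%) and 4 were at least 2-fold lower (all genes 11.7%), a count that was 3, 8 and 4 against each control alone. In RNA 19 were lower (all genes 49.0%), 2 were at least 2-fold higher (all genes 8.77%) and 1 at least 2-fold lower (all genes 10.2%). The ratio was lower in 30 of 34 subunits, against 53.4% of all genes, and in 32, 31 and 30 against each control pair alone. Here too the high control ratio of the subunits is subtracted, and genes of a like control ratio were not compared. In culture itself the subunit median ratio was 0.56, with 28 of 35 above the median gene and 3 at least 2-fold above it (all genes 11.6%). The largest differences in ratio were those of Ndufc1 (−1.06), Ndufa1 (−1.02) and Ndufs4 (−0.92), the last an accessory subunit of the matrix arm whose loss causes a Leigh-like disease in mice. Ndufc1 had 4.11 RPF and 2.69 RNA signal in culture, against 8.37, 9.72 and 9.69 RPF and 2.76, 2.97 and 3.28 RNA in control.

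Culture also differed gene by gene. Ndufa9 and Ndufa10 had more RNA (differences 1.101 and 1.062) and more footprints (0.73 and 0.71) than control hippocampus, and Ndufb2 had less of both (RNA −1.30, RPF −1.63), as in stem cells, which were set against the same control samples. Ndufaf4 had 0.565 RPF and 1.47 RNA signal in culture and a ratio of −1.41 (95% interval −1.71 to −1.12), against −1.003 ± 0.274 in control, so it was at the low end in both. The highest ratio differences were those of Ndufaf1 (0.81), Ndufab1 (0.20) and Ndufaf7 (0.12), and of the Ndufaf factors 5 of 7 were lower, with a median of −0.45. Ndufs1 and Ndufv1 differed in ratio by 0.09 and 0.03, within the range of the control pairs. Culture held almost none of the oligodendrocyte, microglia and choroid plexus markers of the tissue (choroid plexus RPF sum 1.67, against 2092, 1902 and 181 in control), and the part of the absent cell types in these differences was not tested.

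**Figure D3:**
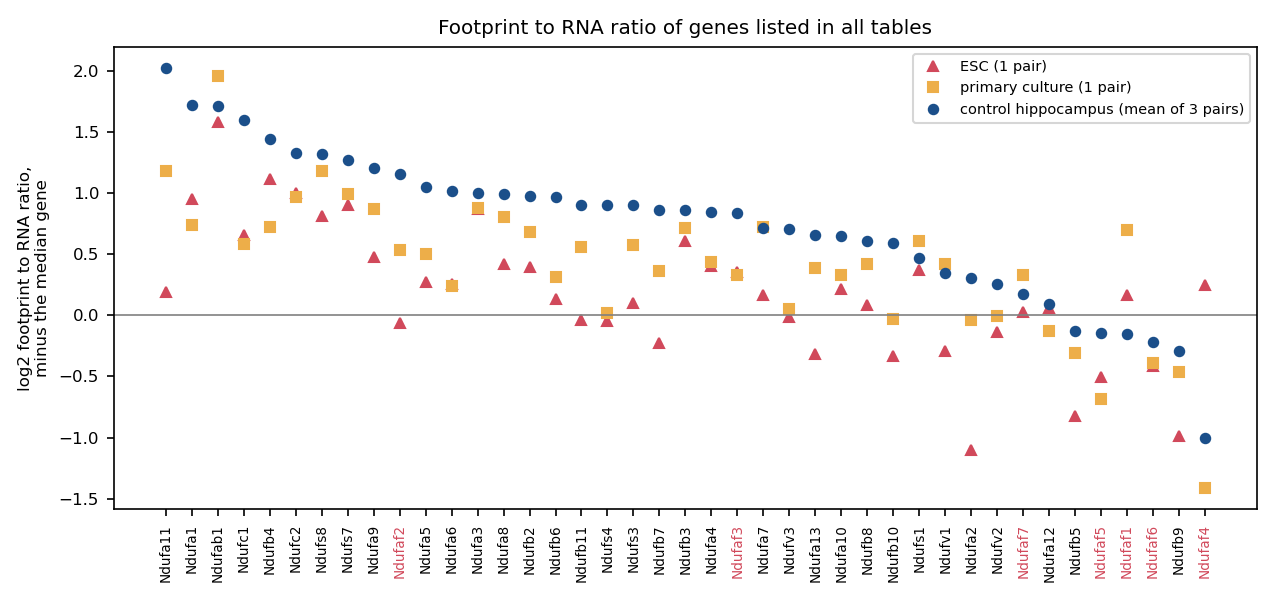
Footprint to RNA ratio (log2, relative to the median gene) of the members reported, in ESC, culture and control hippocampus, with 1 pair of libraries in ESC and in culture and the mean of 3 pairs in control. The medians over all listed subunits are 0.19 in ESC, 0.56 in culture and 0.90 in control, and the Ndufaf medians 0.03, 0.33 and −0.14. Gene by gene, 5 of 7 Ndufaf factors had a lower ratio than control in ESC and 5 of 7 in culture. The Ndufaf medians thus do not show the direction of most factors.

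The order of the members was shared in part between the sources. Across 42 genes the ratios of ESC and control had a Pearson's r of 0.655 and a Spearman's rho of 0.716, those of ESC and culture 0.686 and 0.761, and across 43 genes those of culture and control 0.790 and 0.765. As above, these describe genes and carry no test. Ndufab1 was among the highest ratios of the members in each source, with 1.59 in ESC, 1.96 in culture and 1.71 ± 0.26 in control.

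After fear conditioning, no Nduf gene passed the test in footprints, RNA or the ratio of both at 5, 10 or 30 min or 4 h. The test was limma on log2(signal + 1) with Benjamini-Hochberg adjustment over all genes with a mean signal of at least 1. It covered 40 members in RPF (33 subunits, 6 Ndufaf factors and Ndufa4) and 39 in RNA and ratio (33, 5 and 1). Ndufa7, Ndufs5 and Ndufaf6 were too low to be tested, in RNA and ratio also Ndufaf2. Over all genes the test called 0 as well, which is 0.0% in each of the 12 comparisons, and limma with voom weights on the recovered reads called 0 in RPF, RNA and ratio. These fits leave out the replicate number, so differences between numbers count as spread. In the main fit, fewer genes reached a low p than with the number in the fit. At an unadjusted p under 0.05 stood 51, 26, 20 and 42 of 7898 genes in RPF from 5 min to 4 h, 84, 150, 118 and 209 of 8061 in RNA, and 50, 58, 16 and 44 of 7103 in ratio, among them 1 subunit and 2 Ndufaf values in RNA and 1 Ndufaf value in ratio. The replicate numbers paired the samples, and with the number as a block the calls over all genes were 4 in RPF at 30 min (0.0506%), 3, 2, 2 and 1 in RNA (0.0372%, 0.0248%, 0.0248% and 0.0124%) and 9 and 3 in ratio at 5 and 10 min (0.127% and 0.0422%), with no member among them.

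The subunit medians stayed near 0. The median change was −0.02, 0.01, −0.00 and −0.02 in RPF at 5, 10 and 30 min and 4 h, and −0.02, −0.00, 0.00 and −0.01 in RNA, where the median of all genes was 0.01, 0.03, 0.03 and 0.03. Of 33 subunits, 22, 12, 19 and 26 had negative changes in RPF at the 4 times, 22, 18, 15 and 18 in RNA and 18, 17, 19 and 19 in ratio. By arm, 7 of 7 core subunits were negative in RNA at 5 min, and 7 of 7 tested matrix-arm accessory subunits were positive in RNA at 30 min and negative in ratio at 30 min and 4 h. These counts were picked from those of all roles, kinds and times. They have no test of their own, and the comparisons share the control samples. The share of all genes with each sign was not computed. In ratio the median of all genes was −0.02 at 30 min and −0.02 at 4 h. It thus lay on the side of the matrix-arm counts, as it did in RNA at 30 min, while in RNA at 5 min it was positive. Mixed signs also occurred, such as 4 positive and 3 negative core subunits in RPF at 10 min. Lists outside complex I had 1 sign throughout as well. In RPF at 10 min, 7 of 7 microglia markers were positive and 9 of 9 tested choroid plexus markers negative. Over the 132 subunit changes of each kind the range was −0.14 to 0.09 in RPF and −0.15 to 0.14 in RNA, and over the Ndufaf factors −0.07 to 0.10 and −0.13 to 0.11. The 95% intervals give what these libraries could have missed: their outermost bounds over the subunits were −0.56 and 0.42 in RPF and −0.44 and 0.37 in RNA, and with the block −0.29 and 0.19 and −0.25 and 0.25. For the ratio change the bounds were −0.655 and 0.515, and with the block −0.262 and 0.268. The subunit median ratio was 0.90 in control, 0.88 at 5 min, 0.90 at 10 min, 0.89 at 30 min and 0.89 at 4 h, and the Ndufaf median −0.14, −0.17, −0.07, −0.00 and 0.02.

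**Figure D4:**
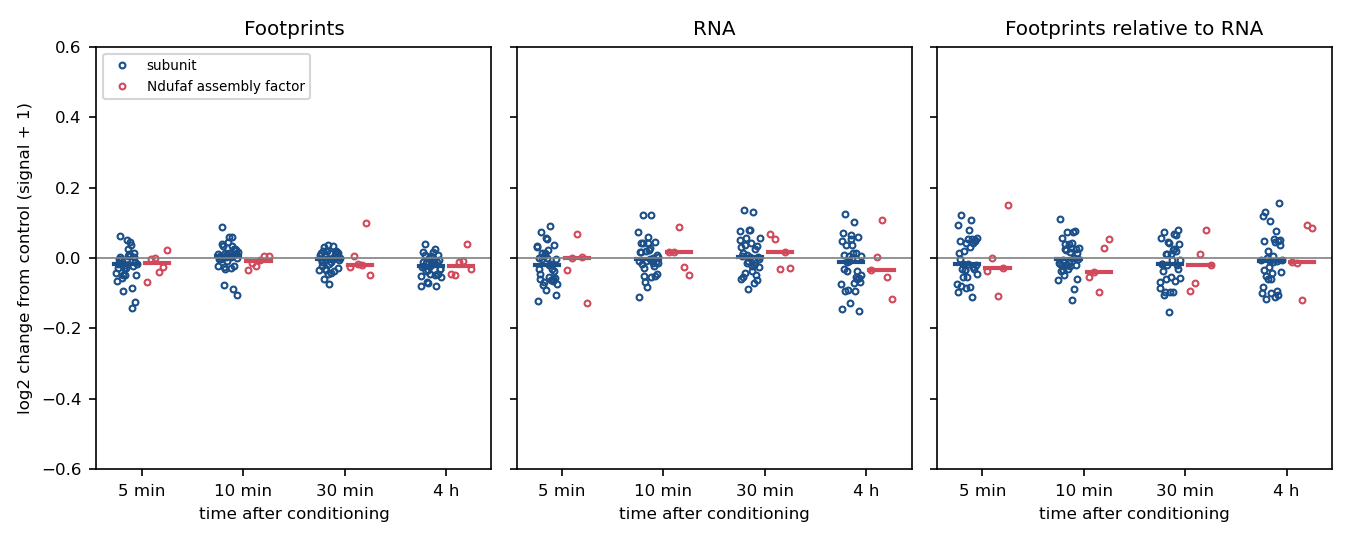
Log2 change from control of each tested member in RPF, RNA and ratio at 5, 10 and 30 min and 4 h, with subunits and Ndufaf factors in separate colours and bars at their medians. All points lie between −0.15 and 0.16, and none passed the test.

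Few members had an unadjusted p under 0.05 without the block. With the block, 15 of 132 subunit and 3 of 20 Ndufaf changes in RNA stood there. In RPF there were 2 of 132 and 1 of 24, and in ratio 6 of 132 and 2 of 20. Among all genes the block put 532, 968, 809 and 1317 of 8061 there in RNA from 5 min to 4 h. For RPF the counts were 544, 259, 218 and 477 of 7898, and for ratio 843, 713, 383 and 847 of 7103. Ndufs7 RNA signal was 3.52, 3.65 and 3.76 at 4 h, against 3.84, 4.40 and 4.22 in control. Its log2 change was −0.15 (SE 0.064, limma adjusted p = 1.00, with the block 0.128). Its RPF signal was 9.63, 10.1 and 11.02 at 4 h, against 9.02, 11.3 and 10.3 in control, which overlapped. Its ratio change at 4 h was 0.16 (limma adjusted p = 1.00, with the block 0.268). Ndufaf7 RNA signal was 1.37, 1.19 and 1.33 at 5 min and 1.40, 1.24 and 1.30 at 4 h, against 1.58, 1.47 and 1.47 in control. Its changes were −0.13 and −0.12 (limma adjusted p = 1.00 at both times, with the block 0.736 and 0.183), and its ratio change at 5 min was 0.15 (unadjusted p = 0.0355, limma adjusted p = 1.00, with the block 0.289). Ndufv1 RPF signal was 7.60, 6.60 and 6.19 at 5 min, against 8.47, 7.37 and 6.69 in control. These groups overlapped, although each replicate number was lower at 5 min (change −0.12, limma adjusted p = 1.00, with the block 0.668).

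Other members at the ends of the lists had changes of similar size that did not pass. Ndufa5, a matrix-arm subunit, had RNA changes of 0.12, 0.14 and 0.12 at 10 min, 30 min and 4 h, and Ndufb9 of 0.09, 0.12 and 0.13 at 5, 10 and 30 min. Ndufb2 had RNA changes of −0.08 and −0.09 at 10 and 30 min, Ndufa11 of −0.11 at 10 min, Ndufv3 of −0.07 at 5 min, and Ndufaf4 of 0.07 and 0.11 at 5 min and 4 h. In RPF, Ndufaf5 had a change of 0.10 at 30 min, Ndufa5 of 0.09 and Ndufv1 of −0.11 at 10 min, and Ndufa1 of −0.08 at 4 h. In ratio, Ndufaf4 had changes of −0.11, −0.10 and −0.12 at 5 min, 10 min and 4 h, Ndufc1 of 0.11 and Ndufa10 of −0.10 at 5 min, and Ndufb9 of −0.12, Ndufs3 of 0.08 and Ndufaf7 of 0.05 at 10 min. At 30 min Ndufb3 had a ratio change of −0.15, Ndufaf1 of −0.09, Ndufaf5 of 0.08 and Ndufs7 of 0.08, and at 4 h Ndufaf7 of 0.09 and Ndufa12 of −0.08. RPF changes named by the rule for Ndufaf7, Ndufa3, Ndufc2, Ndufa8, Ndufb9, Ndufb3 and Ndufa9 lay within the ranges above.

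Replicate numbers differed more than times did. The summed RPF signal of the subunits was 342 ± 3.39 in the 5 libraries of number 1, 390 ± 9.22 in those of number 2 and 399 ± 8.70 in those of number 3 (SD, n = 5), with each number 1 library below all the others, whereas the RNA sums were 216 ± 5.68, 217 ± 4.32 and 223 ± 4.80. In limma's test between the numbers, 37 of 40 members differed in RPF (92.5%, against 73.1% of all genes tested) and 24 of 39 in RNA (61.5%, against 65.5%). The directions were not shared: Ndufa6, a matrix-arm subunit, had mean RPF signals of 7.57, 10.8 and 10.2 in numbers 1, 2 and 3 (adjusted p = 6.02e-09), while Ndufs1 had 8.80, 6.00 and 6.61 (adjusted p = 1.79e-06) and Ndufv1 8.19, 6.80 and 6.68. Ndufs1 RNA had the same order, with 6.39, 4.71 and 4.87. The subunit median ratio was 0.73 to 0.82 in number 1, 0.87 to 0.99 in number 2 and 0.92 to 0.98 in number 3. Choroid plexus markers, of which 11 of 11 were listed, had RPF sums of 1315 to 2092 in number 1, 924 to 1902 in number 2 and 68.5 to 495 in number 3, and astrocyte markers means of 478, 379 and 404. The part of these cell types in the difference between numbers was not tested.

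**Figure D5:**
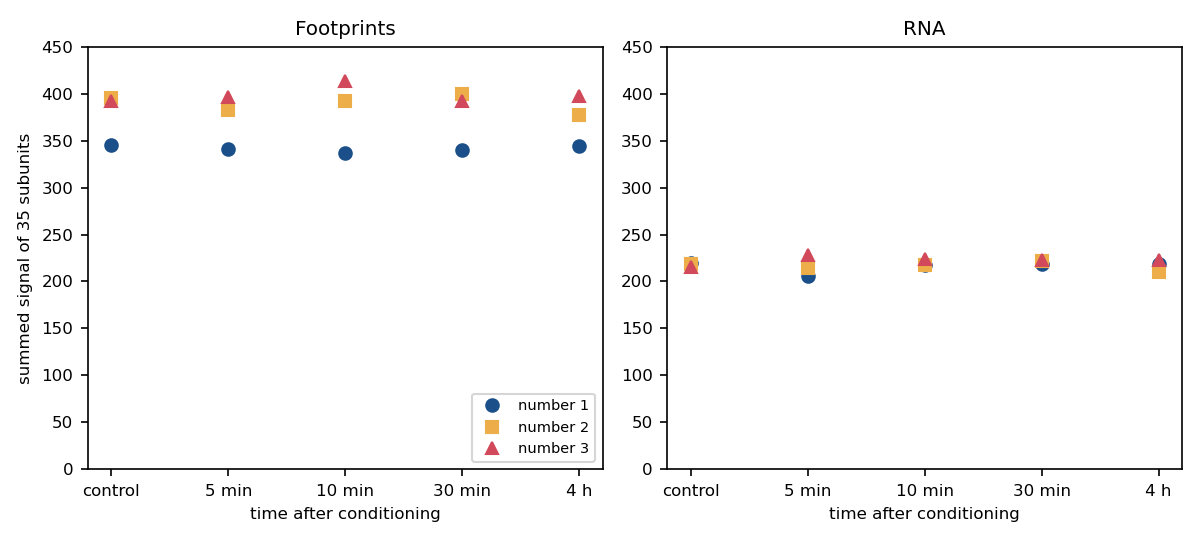
Summed RPF and RNA signal of the complex I subunits in each hippocampus library, in the order control, 5, 10 and 30 min and 4 h, marked by replicate number. In RPF the number 1 libraries lie between 337 and 346 and the others between 378 and 414, with no step along the time axis.

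The other genes of the respiratory chain also had no call after conditioning: none of the 4 complex II, 9 complex III, 11 complex IV and 15 complex V genes tested passed limma's test in either direction in RPF, RNA or ratio. Of 8 other complex I assembly factors listed, 6 were tested in RPF and ratio and 7 in RNA, and none passed. In control hippocampus their median ratios were 0.62, 1.08, 0.69 and 1.06, and 0.14 for the other assembly factors, beside 0.90 for complex I subunits. The ratio difference of ESC from control had medians of −0.71, −0.67, −0.51 and −0.78 for complexes II to V, and that of culture of −0.39, −0.35, −0.53 and −0.60. Lower median ratios outside the tissue were thus seen in each of these complexes as in complex I, and the complexes were not tested against each other. The control medians of these complexes also lay above the median gene and are subtracted, and genes of a like control ratio were not compared.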

How the data were processed

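RPF and RNA libraries of mouse hippocampus (15 of each kind), primary culture and ESC (1 of each) were analysed. Per the submitters' processing notes, CASAVA 1.8.2, Bowtie 1.1.1 and the mm9 build were used. The deposited signal is a number of reads divided by 1 number per library: every value came out whole within 0.001 reads. The sources used here do not state what that number stands for. The signal is not per length, so levels were not compared between genes. Intervals cover counting error only. Ratios needed at least 10 reads in both kinds. Tests used limma 3.58.1 in R 4.3.3 (lmFit, eBayes with trend) on log2(signal + 1), genes with a mean of at least 1 and Benjamini-Hochberg adjustment at 0.05, two-sided; ratio changes were the interaction of kind and time over 30 libraries. The fit was also run on simulated data in which libraries varied independently. Libraries of the same number here vary together, so that run cannot show how the fit behaves under this pairing. A fold change on this scale understates that of low genes.

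Deviations from group means correlated between libraries of the same number in every pair (RPF 0.402 to 0.938, RNA 0.268 to 0.871, RPF with RNA 0.458 to 0.751), so numbers pair the samples. The members, gene lists and motifs were chosen with earlier results of these data known. Genes were named by a rule: the 7 core subunits and every Ndufaf factor, the 3 highest and 3 lowest ratios in control, per kind and time the 2 smallest p-values in each direction, the 3 largest ratio differences each way for culture and ESC, and Ndufa4, Ndufa4l2 and Ndufab1. Ndufs3 and the other genes named beside promoters, Ndufa9, Ndufa10, Ndufb2, Ndufb7 and Ndufa6 were named after their values were seen. Sequences are from RefSeq, GRCm38.p6. One item the naming rule covers is not reported here; counts and medians include it.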

Additional observations from a re-analysis of the deposited data

How the results depend on the processing

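Alternatives were another pseudocount, no filter, scaling to the median gene, the replicate block, leaving out each replicate and, chosen after seeing the data, limma's voom on the recovered reads and each control replicate alone. No Nduf gene was called under any alternative run. Without the filter, RPF at 10 and at 30 min each had 1 gene called. The replicate block gave 4 calls in RPF at 30 min, 3, 2, 2 and 1 in RNA from 5 min to 4 h, and 9 and 3 in ratio at 5 and 10 min, and changed no call of a member. The median RNA change of subunits was −0.0145 at 30 min with median scaling and −0.0784, −0.0577 and −0.0816 at 10 min, 30 min and 4 h with voom; the cause was not tested. A pseudocount of 1 put the subunit median ratio at 0.774 in control and 0.425 in culture. Leaving out 1 control replicate gave 0.833 to 0.936, and 1 replicate of the 5 min fit moved the median ratio change between −0.0551 and 0.0397.

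Leaving out 1 replicate turned the sign of 13 small changes of named genes, none of them a call. In RPF these ran from −0.0240 to 0.0540 for Ndufaf7 and −0.0418 to 0.165 for Ndufa3 at 5 min, −0.0426 to 0.178 for Ndufc2 and −0.169 to 0.00133 for Ndufa8 at 10 min, −0.0318 to 0.117 for Ndufb9 and −0.176 to 0.0172 for Ndufb3 at 30 min, and −0.0112 to 0.0926 for Ndufaf5, −0.0667 to 0.153 for Ndufa3 and −0.149 to 0.000851 for Ndufa9 at 4 h. In ratio they ran from −0.242 to 0.0103 for Ndufaf4 at 5 min, −0.00782 to 0.152 for Ndufs3 and −0.172 to 0.0220 for Ndufaf4 at 10 min, and −0.276 to 0.00520 for Ndufb3 at 30 min.

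A count test on the recovered reads and footprints per residue were not run. Low read numbers limit Ndufs5, Ndufs6, Ndufa4l2 and Ndufaf6, and why they are low was not tested. With 1 library of each kind the differences of ESC and culture rest on no replicate.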
